A study of Saccharomyces cerevisiae with 6 samples.

Results

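The genes described here encode the actin and tubulin cytoskeleton of the budding yeast Saccharomyces cerevisiae, its septins and the proteins that set the axis of budding. They were listed by name for what their products do, by a rule that uses no measured value though earlier results of these data were known, and were matched by gene symbol or synonym to the spots of a two-colour array. Of 42 listed genes, 38 had a named spot, among 5361 genes with a named spot in all. A value on all 3 hybridizations was present for 31 of them, among 3641 such genes.

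Cells of strain S288C growing exponentially in rich glucose medium at 25 °C were exposed to 25 ppm chloroacetaldehyde, a reactive chlorine-bearing aldehyde that attacks thiols and the bases of nucleic acids, from an optical density of 1 and for 2 h. Their polyadenylated RNA, labelled with Cy5, was hybridized against RNA of cells taken before the exposure, labelled with Cy3, in 3 hybridizations of independent biological samples, each read with a high-power and a low-power laser scan. Each value is a log2 ratio, exposed over before, so 0 means equal signal and 1 a doubling. The sources used here give neither the base of the logarithm nor its direction. Base 2 was assumed. The labels put the exposed sample in channel 1, which makes exposed over before the likely direction, and every sign turns if it ran the other way. The exposed sample always carried Cy5 and came from a culture 2 h older, so effects of dye, of growth and of the compound cannot be told apart. The arrays compare pools of cells, in which fewer cells with a transcript and less of it per cell cannot be told apart either.

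Yeast actin is a single essential gene product that forms branched networks in cortical patches, where endocytosis takes place, and long cables along which myosins carry secretory vesicles to the bud. The GTPase Cdc42 with its exchange factor and scaffold marks the site of the bud, septins assemble a ring at the bud neck, and microtubules of alpha and beta tubulin build the spindle. Actin and septins are needed at every budding cycle, so these genes are expressed in growing cells.

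None of the 31 genes passed the test. The count was 0 at an adjusted p under 0.05 (limma against 0, two-sided, Benjamini-Hochberg adjustment over 3641 genes), and 2 at an unadjusted p under 0.05. Over all genes 0.0549% were called by the adjusted p and 6.15% by the unadjusted one. The smallest adjusted p among these genes was 0.615, for the tropomyosin gene TPM1. Mean log2 ratios ran from -0.60 for VRP1 to 0.66 for TPM1, with a median of -0.05, against a median of -0.04 over all genes tested. For 1 gene alone, flipping the signs of 3 hybridizations gives an exact p of 0.25 at the smallest, so the calls rest on the spread that limma shares across genes. The median 95% confidence interval of these genes, unadjusted for the number of genes, reached 0.52 to either side of the mean, so smaller differences were mostly not detectable here. The limit for a call adjusted over all genes lies higher, since TPM1 and VRP1, with means beyond that reach, did not pass.

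Of the 31 genes, 6 were above 0 on all 3 hybridizations, where 11.5% of all genes were, and 4 were below 0 on all 3, where 16.1% were. The 6 were PFY1, AIP1, TPM1, TPM2, ARC19 and CDC10, and the 4 were COF1, VRP1, MYO2 and CDC24. Together they make 10 of 31, beside 27.5% of all genes with the same sign throughout. A mean of at least 0.5 in size was found for 2 of the 31, TPM1 and VRP1, or 6.45%, beside 10.4% of all genes.

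**Figure D1:**
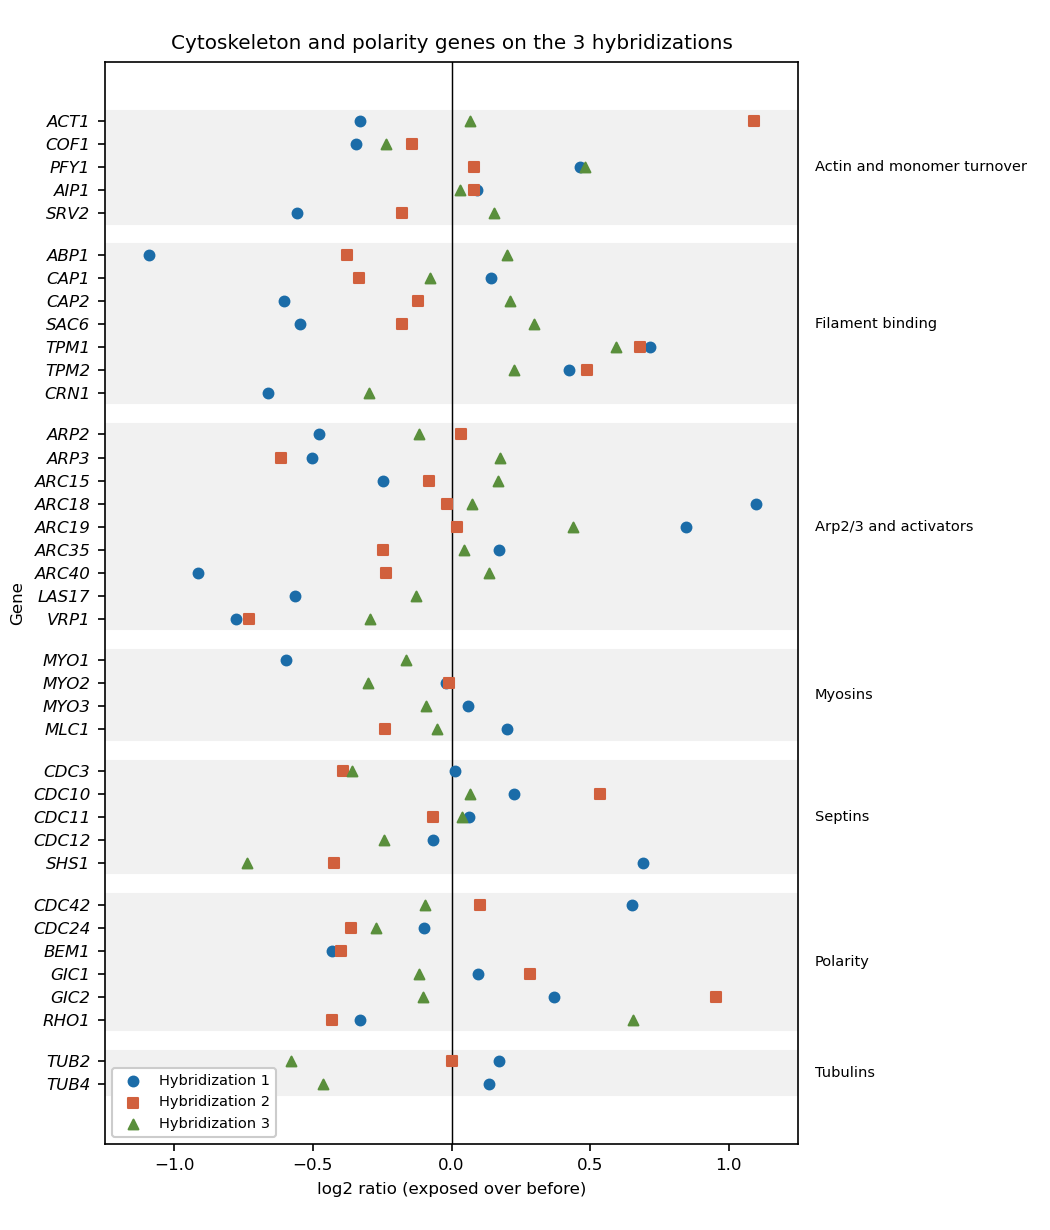
The log2 ratio of exposed over before (x axis) is plotted for each gene with a named spot (y axis, grouped by role), with a point for each of hybridizations 1 (circles), 2 (squares) and 3 (triangles). TPM1 lies between 0.59 and 0.71 on all 3. ACT1, ABP1, ARC18, ARC40, SHS1, GIC2 and RHO1 have points on both sides of 0 more than 1 log2 unit apart.

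ACT1 (YFL039C), the actin gene, had log2 ratios of -0.33, 1.09 and 0.07 on hybridizations 1, 2 and 3. Only hybridization 2 was far above 0, and the mean of 0.28 ± 0.73 (SD, n = 3) did not pass (limma, adjusted p = 0.927). Without hybridization 2 the mean was -0.13. The platform annotation names 49 spots for ACT1, and all of them hold the same set of values in the deposited table, so they count as 1 measurement. Repeat scans gave nearly the same ratio on hybridization 2, 1.10 at high and 1.08 at low power.

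The proteins that bind actin monomers or turn filaments over did not share a direction. PFY1 (YOR122C), which encodes profilin, a monomer-binding protein that feeds filament growth, had 0.46, 0.08 and 0.48, a mean of 0.34 ± 0.23 (limma, adjusted p = 0.885). COF1 (YLL050C), the gene of cofilin, which severs old filaments, lay below 0 throughout, with -0.34, -0.14 and -0.24 and a mean of -0.24 ± 0.10 (limma, adjusted p = 0.916). AIP1 (YMR092C), whose product helps cofilin take filaments apart, had 0.09, 0.08 and 0.03. Its SD of 0.03 was the lowest among the 31 genes, and its 95% confidence interval ran from -0.43 to 0.56 because limma widens very small spreads towards that of other genes. SRV2 (YNL138W), the cyclase-associated protein that recycles monomers, had -0.56, -0.18 and 0.15. These 5 genes had a median of 0.07, with -0.33, 0.08 and 0.07 on the hybridizations.

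Both tropomyosin genes were above 0 on every hybridization. Tropomyosins coil along actin filaments and stabilise the cables, and TPM1 (YNL079C) encodes the major form. TPM1 had 0.71, 0.68 and 0.59, a mean of 0.66 ± 0.06 or 1.58-fold, with a 95% confidence interval from 0.17 to 1.16. Its unadjusted p was 0.0149 and its adjusted p 0.615 (limma), so it did not pass over all genes. TPM2 (YIL138C), the minor form, had 0.42, 0.49 and 0.23, a mean of 0.38 ± 0.14 or 1.30-fold (limma, adjusted p = 0.854). Repeat scans of TPM2 differed more than those of any other listed gene read at both powers, with 0.82 at high and 0.16 at low power on hybridization 2. On hybridization 3 TPM2 had 0.42 at high and 0.03 at low power, and on hybridization 1 it had no low-power value. Its mean was 0.56 with the high-power scan alone, and the low-power scan alone gave no mean over the 3 hybridizations. TPM1 and TPM2 are related in sequence, and how far RNA of each binds the other's spot was not tested.

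Of the other filament-binding genes, the 4 tested differed in sign between hybridizations. ABP1 (YCR088W), an actin-patch protein that stimulates the Arp2/3 complex, had -1.09, -0.38 and 0.20, with a mean of -0.42 ± 0.65 (limma, adjusted p = 0.885). The mean of ABP1 was -0.09 without hybridization 1 and -0.73 without hybridization 3. SAC6 (YDR129C), the gene of the bundling protein fimbrin, had -0.55, -0.18 and 0.30. The capping protein, which closes the growing end of filaments, is made of the products of CAP1 (YKL007W) and CAP2 (YIL034C). CAP1 had 0.14, -0.33 and -0.08, and CAP2 -0.60, -0.12 and 0.21, so the averaged values of this pair had opposite signs on hybridizations 1 and 3. On hybridization 1 CAP1 was -0.05 at high and 0.34 at low power, and the high-power scan alone gave both genes the same sign there. CRN1 (YLR429W), which encodes coronin, had -0.66 and -0.30 on hybridizations 1 and 3 and no value on hybridization 2. The 6 filament-binding genes tested had a median of -0.12.

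The Arp2/3 complex, which starts new branches on existing filaments, showed a wide spread among its subunits on hybridization 1. There the subunit genes ARC18 (YLR370C) and ARC19 (YKL013C) had 1.10 and 0.85, and ARC40 (YBR234C) had -0.91. On hybridization 2 the same 3 genes had -0.02, 0.02 and -0.24, and on hybridization 3 they had 0.07, 0.44 and 0.13. Their means were 0.39 ± 0.62 for ARC18, 0.43 ± 0.41 for ARC19 and -0.34 ± 0.53 for ARC40. The distance between ARC18 and ARC40 thus came mostly from hybridization 1, and without it the mean of ARC18 was 0.03 and that of ARC40 -0.05.

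The genes of the actin-related proteins themselves, the core of the complex, were below 0 on hybridization 1, as were 57.2% of all genes tested. ARP2 (YDL029W) had -0.48, 0.04 and -0.12, and ARP3 (YJR065C) had -0.50, -0.61 and 0.18. ARC15 (YIL062C) had -0.25, -0.08 and 0.17, and ARC35 (YNR035C) had 0.17, -0.25 and 0.05. None of the 7 subunit genes passed, and ARC19 alone had the same sign on all 3 hybridizations. The 7 subunit genes and VRP1 had a median of -0.12, with -0.36, -0.16 and 0.10 on the hybridizations.

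VRP1 (YLR337C), which encodes verprolin, a proline-rich partner of the Arp2/3 activator Las17 and of type I myosins, had the lowest mean of the 31 genes. It had -0.78, -0.73 and -0.29, with a mean of -0.60 ± 0.27, or 1.52-fold lower, and a 95% confidence interval from -1.12 to -0.08. The unadjusted p was 0.0290 and the adjusted p 0.768 (limma). Both of its spots were below 0 on every hybridization, with -0.94 and -0.62 on hybridization 1, -0.63 and -0.83 on hybridization 2, and -0.29 and -0.30 on hybridization 3. LAS17 (YOR181W), the yeast relative of the Wiskott-Aldrich syndrome protein, had -0.57 and -0.13 on hybridizations 1 and 3 and could not be tested.

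**Figure D2:**
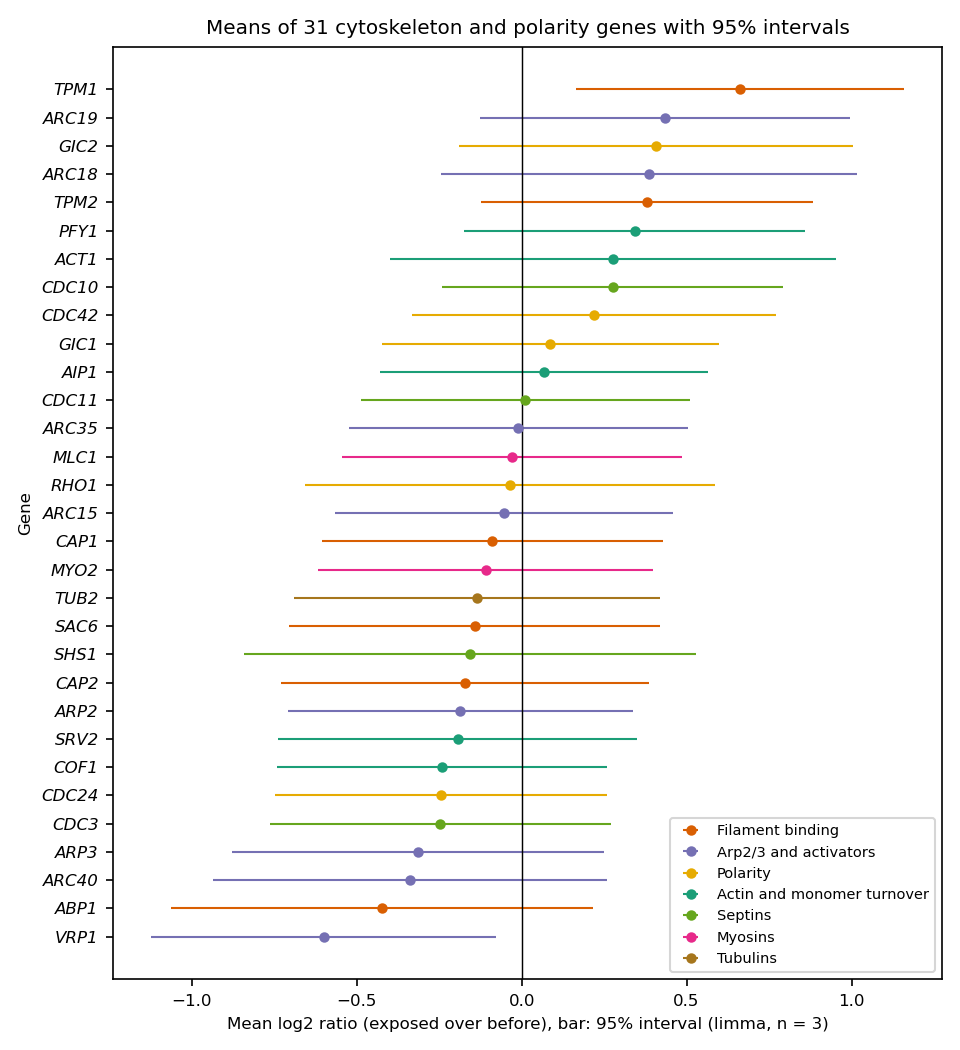
The mean log2 ratio of exposed over before (x axis) is shown for the 31 genes tested (y axis, ordered by mean), with bars for limma's 95% confidence interval, unadjusted for the number of genes. TPM1 at the top and VRP1 at the bottom are the 2 genes whose intervals leave out 0, and their adjusted p were 0.615 and 0.768.

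Myosin genes were thinly measured. MYO2 (YOR326W), the type V myosin that carries vesicles and organelles along cables, had -0.02, -0.01 and -0.30. Its light chain gene MLC1 (YGL106W) had 0.20, -0.24 and -0.05. MYO1 (YHR023W), the type II myosin of the contractile ring, had -0.60 and -0.16 on hybridizations 1 and 3, and MYO3 (YKL129C), a type I myosin of endocytic patches, had 0.06 and -0.09. Neither has a value on hybridization 2. MYO5, the close relative of MYO3, has no named spot and was not analysed here.

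Septin genes, whose products assemble into the same filaments, differed in sign on hybridizations 2 and 3, and none of the 4 tested passed. On hybridization 1 all 4 were above 0, where 42.8% of all genes tested were. CDC3 had 0.03 at high and -0.0056 at low power there, and CDC11 -0.04 and 0.16, so their scans had opposite signs. The fifth septin gene, CDC12, could not be tested and was below 0 there. CDC10 (YCR002C) was above 0 throughout, with 0.22, 0.53 and 0.07 and a mean of 0.28 ± 0.24 (limma, adjusted p = 0.895). CDC3 (YLR314C) had 0.01, -0.39 and -0.36, and CDC11 (YJR076C) had 0.06, -0.07 and 0.04. SHS1 (YDL225W), a septin that takes the end position of the filament in place of Cdc11, had 0.69, -0.42 and -0.74. Its range of 1.43 was the widest of the 31 genes, and the mean of -0.16 ± 0.75 became 0.13 without hybridization 3. CDC12 (YHR107C) had -0.07 and -0.24 on hybridizations 1 and 3. The median of the 4 septin genes tested was -0.07, with 0.14, -0.23 and -0.16 on the hybridizations.

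Polarity genes differed in sign as well. GIC2 (YDR309C), a Cdc42 effector that helps bud emergence, had 0.37, 0.96 and -0.10, with a mean of 0.41 ± 0.53 (limma, adjusted p = 0.885), and its relative GIC1 (YHR061C) had 0.10, 0.28 and -0.12. Without hybridization 2 the mean of GIC2 was 0.13. Both GIC genes were highest on hybridization 2 and below 0 on hybridization 3. CDC42 (YLR229C) itself had 0.65, 0.10 and -0.10, with a mean of 0.22 ± 0.39 that became 0.0031 without hybridization 1. CDC24 (YAL041W), the exchange factor of Cdc42, had -0.10, -0.36 and -0.27, a mean of -0.25 ± 0.13 (limma, adjusted p = 0.916). The scaffold gene BEM1 (YBR200W), whose product holds Cdc24 at the bud site, had -0.43 and -0.40 on hybridizations 1 and 2 and no value on hybridization 3. RHO1 (YPR165W), the GTPase that directs cell wall synthesis, had -0.33, -0.43 and 0.65, and its repeat scans on hybridization 3 gave 0.71 at high and 0.60 at low power. The 5 polarity genes tested had a median of 0.09. BNI1, the gene of the formin that nucleates cables in the bud, has no named spot and was not analysed here.

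Tubulin is represented by beta and gamma forms. TUB2 (YFL037W), the beta tubulin gene, had 0.17, 0.00 and -0.58, a mean of -0.14 ± 0.39 with a 95% confidence interval from -0.69 to 0.42 (limma, adjusted p = 0.961). TUB4 (YLR212C), the gamma tubulin from which microtubules grow at the spindle pole body, had 0.14 and -0.46 on hybridizations 1 and 3. Both were below 0 on hybridization 3. On hybridization 1 the scans of TUB4 had opposite signs, 0.36 at high and -0.09 at low power. The alpha tubulin genes TUB1 and TUB3 have no named spot and were not analysed here.

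Set side by side, the medians of the role groups ran from -0.12 for the Arp2/3 complex with its activators and for filament-binding genes to 0.09 for polarity genes, without counting the single tubulin gene. No test was made between groups. The SD of a group's medians over the hybridizations ran from 0.12 for polarity genes to 0.23 for the Arp2/3 group, so the spread between hybridizations was of the size of the differences between groups. On hybridization 1 the 21 actin, Arp2/3 and myosin genes had a median of -0.25 with 12 below 0, on hybridization 2 a median of -0.12 with 14 below 0, and on hybridization 3 a median of 0.13 with 15 above 0. The medians of all genes tested on those hybridizations were -0.09, -0.01 and -0.02. Of all genes 57.2% and 50.6% were below 0 on hybridizations 1 and 2, and 47.9% were above 0 on hybridization 3. The 12 of 21 on hybridization 1 are thus near the share of all genes. The 14 and 15 of 21 make 66.7% below 0 on hybridization 2 and 71.4% above 0 on hybridization 3. These 21 genes pool 4 role groups and share an array, so they are not independent, and their counts were not tested.

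The hybridizations differed far more than the scans of each did. For 65 pairs of high and low scans, from 35 of these genes, the median difference was 0.10 on the log2 scale, and 8 pairs had opposite signs. These were CAP1, MYO2, MYO3, CDC3, CDC11 and TUB4 on hybridization 1 and ARC35 and ARC40 on hybridization 3. For 93 pairs of hybridizations, from the 31 genes, the median difference was 0.37, or 3.68 times as large. The 2 sets are not matched: scan pairs need a value at both powers, while hybridization pairs include values read at only 1 power. Across the 31 genes the correlation of log2 ratios was 0.37 between hybridizations 1 and 2, -0.04 between 1 and 3, and 0.19 between 2 and 3, beside 0.21, -0.05 and 0.07 across all genes tested. These are descriptions across genes that share an array and are not independent. The median SD of these genes was 0.26, and that of all genes tested 0.38.

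**Figure D3:**
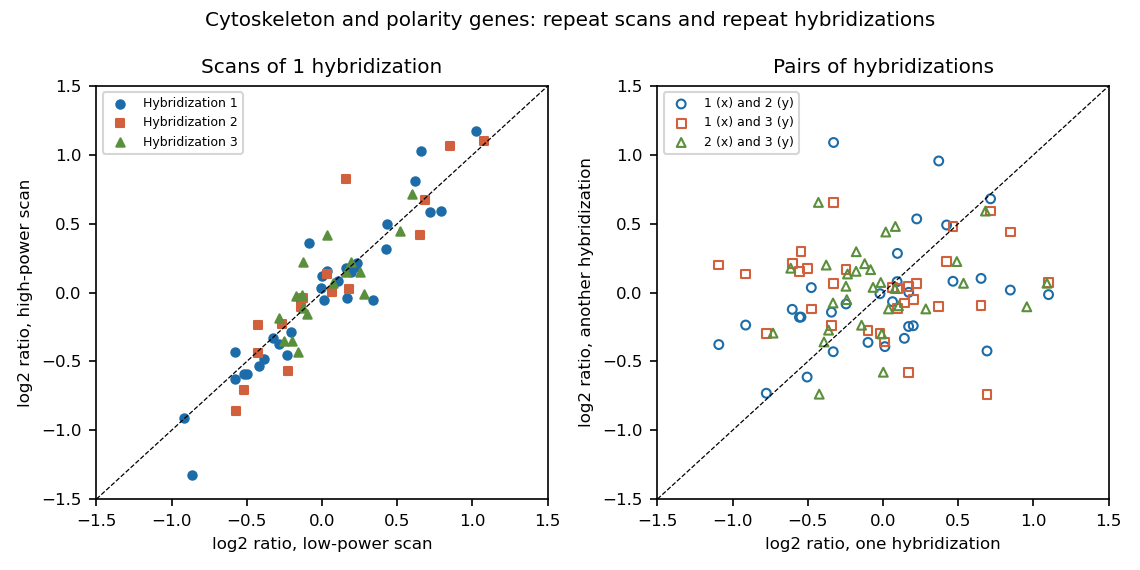
Left, the log2 ratio of the high-power scan (y axis) against that of the low-power scan (x axis) of the same hybridization, for 65 pairs from 35 genes. Right, the log2 ratio on one hybridization against another for the 31 genes, with a marker for each pair of hybridizations. Repeat scans follow the dashed line of equality, with a median difference of 0.10, and repeat hybridizations scatter, with a median difference of 0.37.

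Short genes had higher log2 ratios than long genes, most clearly on hybridization 1. The length used is the gene span, introns included, in the gene table of the R64 assembly. Across all 3641 genes Spearman's rho between log2 ratio and span was -0.34, -0.05 and -0.17 on hybridizations 1, 2 and 3, and across the 31 genes it was -0.51, -0.32 and -0.43. The 14 genes under 1000 bp had a median of the mean log2 ratio of 0.15, and the 17 longer ones of -0.16. Over all genes these medians were 0.07 for 1354 short and -0.10 for 2287 longer genes. The genes with the highest means, TPM1 (600 bp), ARC19 (516 bp), ARC18 (537 bp) and TPM2 (486 bp), are short apart from GIC2 (1152 bp), and VRP1 (2454 bp) is longer than all but CDC24 and MYO2.

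Once the trend with span was taken out of each hybridization, a step chosen after seeing the data, TPM1 had a mean of 0.53 (limma, unadjusted p = 0.0368) and VRP1 of -0.51 (unadjusted p = 0.0492), with an adjusted p of at least 0.877 for every one of the 31 genes. TPM2 had 0.20 and ARC19 0.27 in that fit, against 0.38 and 0.43 without the step. What makes the ratio depend on span was not tested.

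**Figure D4:**
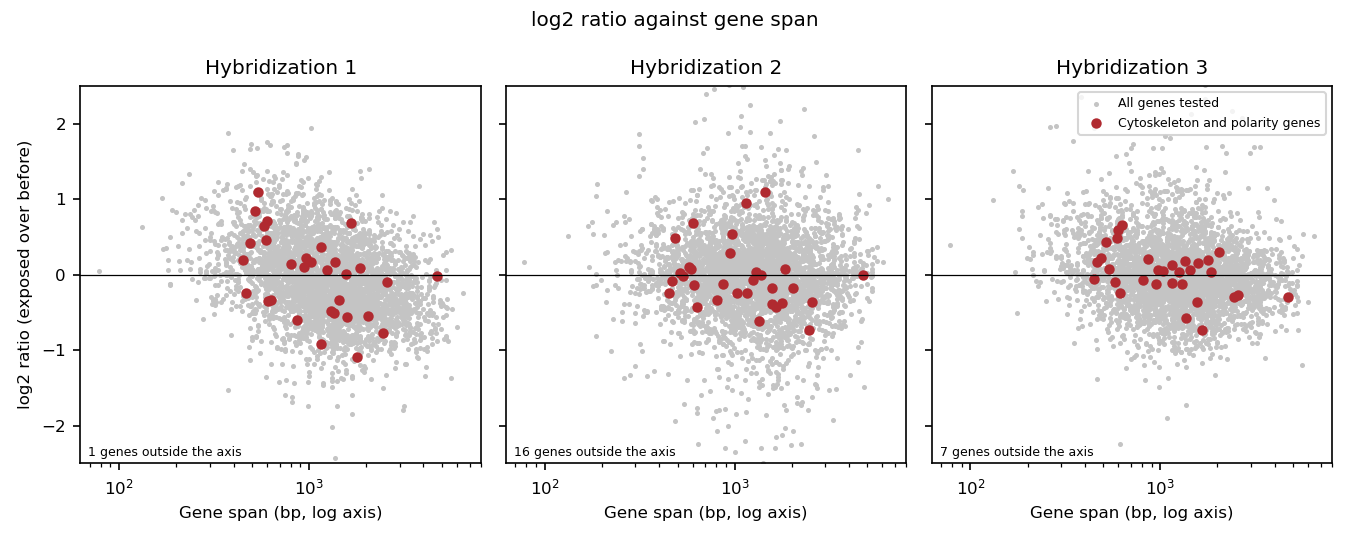
The log2 ratio of exposed over before (y axis) is plotted against gene span in base pairs (x axis, log scale) for hybridizations 1, 2 and 3, with all 3641 genes tested in grey and the 31 cytoskeleton and polarity genes in red. The number of genes beyond the y axis is written in each panel. The cloud slopes down on hybridization 1, where Spearman's rho was -0.34 over all genes and -0.51 over the 31.

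Further genes of the same systems were read from 5 lists outside the 42 listed genes, and 0 of their measured members passed the adjusted threshold (limma, 0.0549% of all genes did). In the list of other actin patch and cable proteins, 20 of 30 genes were measured on all hybridizations, 14 of them had a mean below 0, and the median of the 20 was -0.14, beside 55.2% of means below 0 and a median of -0.04 over all genes tested. At an unadjusted p under 0.05 there were 2, both with a negative mean, where 6.15% of all genes were. SLA1, an endocytic adaptor that binds Las17, had -1.11, -0.65 and -0.14, with a mean of -0.63 ± 0.49 (limma, adjusted p = 0.783). PRK1, a kinase that regulates actin patches, had -0.66, -0.50 and -0.38, with a mean of -0.51 ± 0.14 (limma, adjusted p = 0.799).

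Among 31 measured of 41 other bud site and polarity regulators, 18 had a negative mean, a share near the 55.2% of all genes, the median was -0.07, and 0 had an unadjusted p under 0.05. The bud site exchange factor gene BUD5 had -0.57, -0.94 and -0.11, and BOI1, whose product binds Bem1, had 0.07, -0.88 and -0.83. Among 10 measured of 19 septin regulators and cytokinesis genes the median was -0.01. There CYK3, a cytokinesis gene, had 0.01, 0.62 and 0.22, and NIS1, a bud neck gene, had 0.04, -0.77 and 0.16, and 0 had an unadjusted p under 0.05.

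Microtubule and spindle pole genes had a median of -0.06 over 16 measured of 37, with 1 gene at an unadjusted p under 0.05. This was BIM1, which encodes a protein that tracks growing microtubule ends, with -0.66, -0.44 and -0.65 and a mean of -0.59 ± 0.13 (limma, adjusted p = 0.756). BIK1, another plus-end protein gene, had -0.35, -0.19 and -0.39. Genes for the folding of actin and tubulin had a median of -0.04 over 14 measured of 22, with 0 at an unadjusted p under 0.05. CCT4, a subunit of the chaperonin that folds both proteins, had -0.82, -0.04 and -0.57, and CIN1, a tubulin folding cofactor gene, had -0.34, -0.05 and -0.91.

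Sporulation genes served as markers of a cell state other than vegetative growth. Of 13, none had a value on hybridization 2, while 12 had one on hybridization 1 and 8 on hybridization 3, with log2 ratios between -1.05 and 1.43. Hybridization 2 was also the sparsest over all 6912 spots: 6104, 4121 and 5100 had a high-power value on hybridizations 1, 2 and 3. Ratios give no level of a transcript in either sample, so the state of the cells could not be checked with them.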

How the data were processed

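The deposited values are log2 ratios, 1 for each spot and scan. The authors had normalized them by LOWESS on spots of flag 0, per the labels, which centres the ratios and would hide a shift shared by most transcripts. How far a spot stood above background is unknown, since scanner, array design, background treatment and brightness were not stated in the sources used. The table holds 6912 spots, of which 1399 have no gene name in the platform annotation and 0 have several. The 5513 named spots were given current symbols through the R64 gene table, which also gave gene span. The files name no build, so no coordinates are given.

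High and low scans were averaged within a hybridization, since a rescan is no replicate, and repeated spots were averaged into 1 value per gene. Genes measured on all 3 hybridizations were then set against 0 in limma 3.58.1 under R 4.3.3 (mean, eBayes, two-sided, Benjamini-Hochberg, threshold 0.05), a procedure tested on simulated data. Precision is limited by there being 3 arrays. The sources do not say whether each hybridization had its own culture for the RNA taken before exposure. At high power 38, 32 and 35 of the listed genes had a value on hybridizations 1, 2 and 3, and at low power 32, 16 and 19.

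The listed genes, their role groups and the 6 other lists were chosen with earlier results of these data known. By rule, every listed gene is accounted for, and from each other list the 2 measured genes with the smallest p are named. The sporulation list had 0 genes measured on all 3 hybridizations, so none of its genes had a p and none is named. Alternatives were the high or the low scan alone, only genes seen by both scans, genes present on 2 or more hybridizations, centring, quantile scaling, robust moderation, removal of the median of each run of 200 neighbouring spot numbers, removal of the trend with gene span, and each hybridization left out.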

Additional observations from a re-analysis of the deposited data

How the results depend on the processing

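The count of cytoskeleton and polarity genes past the threshold was 0 under every alternative run, with a smallest adjusted p between 0.508 (without hybridization 3) and 0.998 (without hybridization 2). Their median log2 ratio stayed between -0.12 and -0.0025, and TPM1 and VRP1 kept their direction in every fit that measured them. The fits of the low-power scan alone and of genes seen by both scans measured neither. TPM1 lacked a low-power value on hybridization 3 and VRP1 on hybridization 1. Of 171 gene means under settings that keep all 3 hybridizations, 164 kept their direction. The others crossed 0 from small values: CAP1 had 0.0072 and RHO1 0.056 once position medians were taken out, ARC35 had 0.030, MLC1 0.0095 and RHO1 0.0046 once each hybridization was centred, and ARC35 had 0.056 and CDC11 -0.022 with the high-power scan alone. With a hybridization left out, 14 of 93 means changed sign, in 12 genes. Their means over these fits ran from -0.13 to 0.58 for ACT1, -0.20 to 0.033 for CAP1, -0.36 to 0.044 for CAP2, -0.36 to 0.059 for SAC6, -0.16 to 0.042 for ARC15, -0.10 to 0.11 for ARC35, -0.15 to 0.075 for MLC1, -0.014 to 0.050 for CDC11, -0.58 to 0.13 for SHS1, -0.012 to 0.19 for GIC1, -0.38 to 0.16 for RHO1 and -0.29 to 0.086 for TUB2. Group medians changed sign too: actin and its turnover genes had -0.13 without hybridization 2, filament-binding genes 0.05 without hybridization 1, and septins 0.013 and 0.066 without hybridizations 2 and 3. Fewer genes were measured in some settings: the median of actin and its turnover genes was 0.31 over the 2 seen by both scans, and that of polarity genes 0.24 over the 3 measured with the low-power scan alone. The number of genes called over all genes was 2, and it was 0, 1 and 11 without hybridizations 1, 2 and 3, 1 after quantile scaling and after removal of position medians, and 4 over the 967 genes seen by both scans. Each ratio already pairs exposed and earlier RNA within an array, so no further pairing was fitted.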
